A study of Mus musculus with 6 samples.

Results

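The data concern 7 genes of sodium and calcium transport, of 22180 genes measured, in MC3T3-E1, a mouse cell line derived from calvaria whose pre-osteoblasts lay down mineralised matrix in culture. They are Atp1b1, Atp1b2 and Atp1b3, which encode β subunits of the sodium pump, and Slc8a1, Slc8a2, Slc8a3 and Slc8b1, which encode sodium-calcium exchangers. The genes were chosen by family, and because Atp1b1 was lower and Slc8a3 higher with NU7441 on these arrays. Their differences between the groups are therefore given as a description, and no test is drawn from them. Each gene had a single probe set annotated to its symbol alone, so all 7 were found, and no filter on level was applied in the reported fit.

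All cells were grown to confluence and then held for 14 days in osteogenic medium, which held 10% serum with ascorbic acid at 50 µg/ml and β-glycerophosphate at 10 mM. In 3 samples the medium also held 1 µM NU7441, an inhibitor of the catalytic subunit of the DNA-dependent protein kinase, and in the 3 control samples its solvent, DMSO. Total RNA of whole cells was measured on Affymetrix arrays, 1 per sample, and samples are numbered 1 to 3 in each group. The series asks how phosphorylation of the coregulator alphaNAC by this kinase bears on osteoblast formation. All samples come from 1 cell line, and no label states that replicates were separate cultures. The errors and p-values given here therefore rest on a spread between samples that may be technical.

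The sodium pump uses ATP to move sodium out of the cell and potassium in. Its α subunit does the transport, and the β subunit, a glycoprotein that spans the membrane once, is needed for the α subunit to fold and reach the cell surface. Sodium-calcium exchangers of the plasma membrane spend the sodium gradient that the pump builds to push calcium out of the cell, and the product of Slc8b1 exchanges sodium for calcium across the inner mitochondrial membrane. In mineralising osteoblasts, exchangers of the plasma membrane are regarded as one route by which calcium leaves the cell.

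The arrays had medians between 6.38 and 6.42 and lower quartiles between 5.11 and 5.16 on the log2 scale of the deposited values, and any pair of arrays correlated between 0.989 and 0.993. Over all genes, limma called 0 of 22180 (0%) at an adjusted p under 0.05 and 1506 (6.79%) at an unadjusted p under 0.05. All 10 markers listed for osteoblasts averaged above the lower quartiles of the arrays, with list medians of 9.81, 9.87 and 10.56 in NU7441 1 to 3 and 9.37, 9.48 and 10.32 in DMSO 1 to 3. Bglap, one of them, was at 6.36 on DMSO 1, below that array's median of 6.41. In the astrocyte and neuron lists, cell types in which Atp1b2 and Slc8a2 are best known, the list medians ran from 6.41 to 6.75 and from 6.00 to 6.17 with NU7441, and from 6.39 to 6.49 and from 5.96 to 6.18 with DMSO.

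The windows around the starts of Atp1b1 and Slc8a3 are shown because these genes had the largest differences of the 7. Both are 300 bases from RefSeq on build GRCm38.p6, from 250 before to 50 after the gene's start, 5′ to 3′ on the gene's strand. Atp1b1 lies on the minus strand at chr1:164458306-164458605, and Slc8a3 on the minus strand at chr12:81333131-81333430. Capitals mark every match, on either strand, to the motifs named next.
Atp1b1: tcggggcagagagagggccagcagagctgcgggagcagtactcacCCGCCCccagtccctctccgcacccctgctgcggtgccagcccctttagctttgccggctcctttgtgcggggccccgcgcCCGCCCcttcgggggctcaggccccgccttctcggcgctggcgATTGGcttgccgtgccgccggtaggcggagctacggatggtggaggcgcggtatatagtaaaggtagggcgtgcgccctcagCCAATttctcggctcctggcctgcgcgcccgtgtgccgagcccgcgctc
Slc8a3: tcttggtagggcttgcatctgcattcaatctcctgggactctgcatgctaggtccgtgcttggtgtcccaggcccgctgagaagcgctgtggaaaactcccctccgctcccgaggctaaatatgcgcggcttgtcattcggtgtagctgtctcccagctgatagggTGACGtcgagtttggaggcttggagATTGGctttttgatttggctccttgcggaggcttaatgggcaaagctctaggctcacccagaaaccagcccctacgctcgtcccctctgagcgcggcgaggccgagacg

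The letters TGANTCA were searched for as the site of AP-1, a factor that alphaNAC is known to coactivate. For part of the cAMP response element the letters were TGACG, and for the core of the hypoxia response element they were ACGTG. A GC box was read as GGGCGG and a TATA box as TATAAA, while a CCAAT box was its own name. No motif of the 6 holds another, though matches of the cAMP and hypoxia motifs can overlap. The Atp1b1 window held 2 GC boxes, at -205 and -124 from the start, and 2 CCAAT boxes, at -81 and 1. Slc8a3 had no GC box, with a TGACG at -84 and a CCAAT box at -59. Of 32851 windows of the same length, 35.7% held a GC box, 37.4% a CCAAT box and 20.8% a TGACG. The Atp1b1 window was 71.0% G and C with 31 CpG pairs, and the Slc8a3 window 58.3% with 18, where the median of all windows was 52.7% with 7.

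Windows were also found for Atp1b3 (2 starts), Slc8a1 and Slc8a2, and not for Atp1b2 and Slc8b1. One Atp1b3 window held 6 GC boxes and the other none, at 76.0% and 74.7% G and C, and Slc8a2 had 1 GC box and 2 CCAAT boxes at 61.3%. Slc8a1, at 50.7% G and C, matched none of the motifs. AP-1 letters were in 0 of these 6 windows, against 7.81% of all windows, and TATAAA, found in 13.6% of all windows, was in neither of the printed ones. These matches describe letters and show no binding.

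Among the sodium pump genes, Atp1b1 was lower with NU7441 and Atp1b2 and Atp1b3 differed little between the groups. Atp1b1, which encodes β1, the β subunit found in most tissues, had log2 signals of 7.94, 7.72 and 7.24 in NU7441 1 to 3, against 9.0, 8.68 and 8.59 in DMSO 1 to 3. Every NU7441 array lay below every DMSO array, with a gap of 0.66 between the nearest arrays of the groups. The means were 7.63 ± 0.36 with NU7441 and 8.76 ± 0.22 with DMSO (SD, n = 3 each), a log2 difference of -1.13 (SE 0.19), so that the signal with DMSO was 2.18 times that with NU7441. By size, this was the 2nd most negative difference among the 22180 genes, of which 3 were at -1 or below. In RNA from whole cultures, fewer cells that express a gene and less of its RNA per cell cannot be told apart.

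Same-numbered arrays differed by -1.07, -0.96 and -1.36 for Atp1b1, in the order of their numbers. The array numbered 3 was the lowest of its group both with NU7441 and with DMSO. Leaving out 1 array at a time gave differences between -1.28, without NU7441 1, and -0.93, without NU7441 3.

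Atp1b3, which encodes the widely expressed β3, was bright on all arrays, at 10.73, 10.73 and 11.01 with NU7441 and 10.69, 10.75 and 10.86 with DMSO. The groups overlapped, and the difference was 0.06 (SE 0.10, 95% interval from -0.18 to 0.29). Atp1b2 encodes β2, first known as an adhesion molecule on glia. It was below the array medians, at 5.80, 6.17 and 5.99 with NU7441 and 5.90, 5.96 and 6.08 with DMSO, a difference of 0.01 (SE 0.11, 95% interval from -0.24 to 0.26). These intervals leave room for small changes in either direction, and do not reach the 2-fold size of the Atp1b1 difference. The sign of the Atp1b3 difference turned without NU7441 3. That of Atp1b2 turned without NU7441 2, without DMSO 1, with quantile normalization and with median centring.

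**Figure D1:**
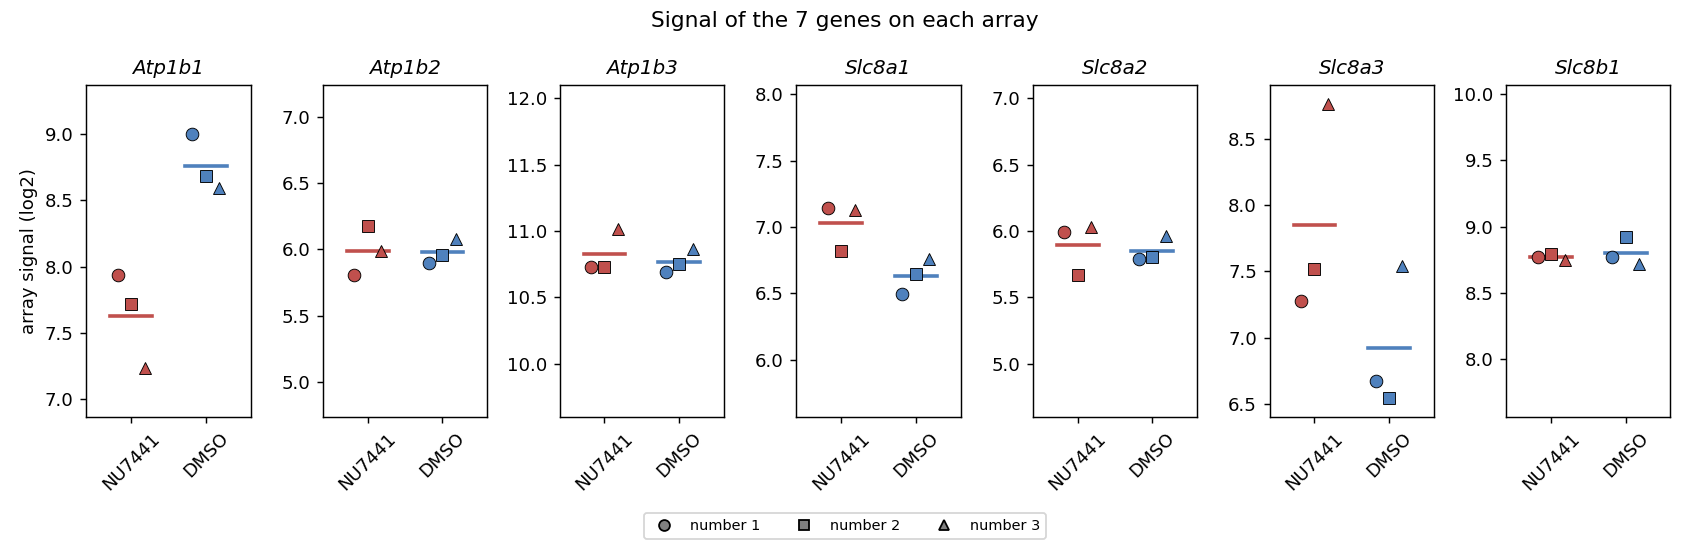
Log2 array signal (vertical axis, the same span in every panel) of each of the 7 genes on the 3 NU7441 arrays (red, left) and the 3 DMSO arrays (blue, right), with the replicate number as the marker and a bar at the group mean. Atp1b1 sits between 7.24 and 7.94 with NU7441 and between 8.59 and 9.0 with DMSO, while Slc8a3 is highest on the array numbered 3 in each group.

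Of the exchangers of the plasma membrane, Slc8a3 and Slc8a1 were higher with NU7441 and Slc8a2 differed little. Slc8a3 encodes NCX3, best known in brain and skeletal muscle and also described in osteoblasts. Its log2 signals were 7.28, 7.52 and 8.76 in NU7441 1 to 3, against 6.67, 6.55 and 7.54 in DMSO 1 to 3. The groups overlapped: DMSO 3 lay above NU7441 1 and just above NU7441 2, and in both groups the array numbered 3 was well above the other 2. Means were 7.85 ± 0.80 with NU7441 and 6.92 ± 0.54 with DMSO (SD, n = 3 each), a log2 difference of 0.93 (SE 0.42), or 1.91-fold. It ranked 11th from the top among the differences of all 22180 genes.

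Between same-numbered arrays the Slc8a3 differences were 0.60, 0.97 and 1.22, all higher with NU7441. The spread around the mean difference was smaller when same-numbered arrays were taken as pairs (SE 0.13). Without NU7441 3 the difference was 0.48, and with both arrays numbered 3 left out, a setting chosen after seeing the data, it was 0.79.

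Slc8a1 encodes NCX1, the exchanger of heart muscle that many other tissues also use. It was at 7.15, 6.82 and 7.13 with NU7441 and at 6.49, 6.64 and 6.75 with DMSO, near the array medians. Each NU7441 array was above all DMSO arrays, but the nearest arrays of the groups were only 0.06 apart. The log2 difference was 0.40 (SE 0.11), or 1.32-fold, and 1.51% of all genes had a larger difference in either direction. Differences between same-numbered arrays were 0.65, 0.18 and 0.37.

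Slc8a2 encodes NCX2, an exchanger of neurons, and was dim, at 5.99, 5.67 and 6.03 with NU7441 and 5.79, 5.81 and 5.96 with DMSO. Its difference was 0.04 (SE 0.11, 95% interval from -0.22 to 0.31), and the sign turned without NU7441 1, without NU7441 3 and with array weights. How far Slc8a2 and Atp1b2 stood above background was not analysed here, and their change in transcript could be larger than that in signal. The mitochondrial exchanger Slc8b1 was at 8.77, 8.80 and 8.75 with NU7441 and 8.77, 8.92 and 8.72 with DMSO. The groups overlapped, the difference was -0.03 (SE 0.07, 95% interval from -0.21 to 0.14), and its sign turned without DMSO 2.

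Across the 7 genes, 5 were higher and 2 lower with NU7441, with a median difference of 0.04, against 0.00 over all genes. The groups did not overlap for Atp1b1 and Slc8a1, 2 of the 7, where 12.8% of all genes showed no overlap. In the fit over all genes limma called 0 of the 7 at an adjusted p under 0.05 (0% of all genes). With same-numbered arrays as a block and a trended, robust prior it called Atp1b1 and Slc8a3, beside 0.451% of all genes. Atp1b1 and Slc8a1 were at an unadjusted p under 0.05. Nothing is read from those calls or from this count, since the genes were chosen on this comparison. Same-numbered arrays differed in 1 direction throughout for 3 genes, Atp1b1, Slc8a1 and Slc8a3, as they did for 32.7% of all genes.

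**Figure D2:**
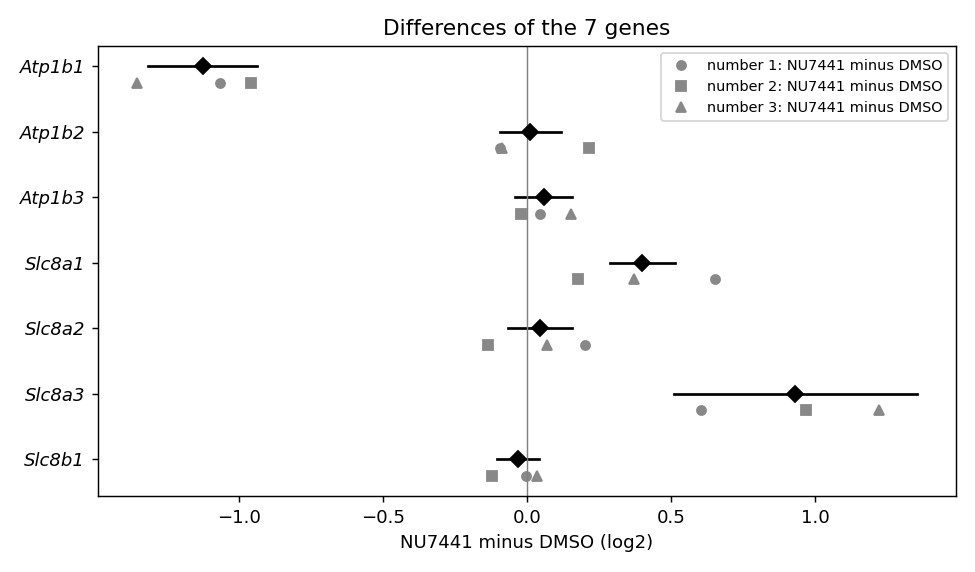
Log2 difference, NU7441 minus DMSO (horizontal axis), of each of the 7 genes, with black diamonds for the group difference, black lines for 1 standard error to either side, and grey markers below for the differences between same-numbered arrays. Atp1b1 lies at -1.13, Slc8a1 at 0.40 and Slc8a3 at 0.93, and the other 4 genes lie within 0.1 of 0.

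The array numbered 3 was the highest of its group in both groups for 8 of the 10 markers and for Slc8a3, Atp1b3 and Slc8a2, as for 15.6% of all genes. It was the lowest in both groups for Atp1b1 and Slc8b1, as for 15.0% of all genes. Alpl, the alkaline phosphatase of mineralising cells, was at 9.72, 9.75 and 10.31 with NU7441 and 9.24, 9.14 and 9.76 with DMSO. Phex, a membrane protein of osteoblasts and osteocytes that restrains phosphate loss, was at 8.91, 9.01 and 10.56 with NU7441 and 8.17, 7.80 and 9.61 with DMSO. Alpl, Phex and Sp7, 3 of the 10 markers, ranked the 6 arrays in the same order as Slc8a3, as did 0.487% of all genes. Others did not: Col1a1 was lowest of its group on NU7441 3, and Dmp1, a matrix protein of osteocytes, was at 10.35 on NU7441 3 and at 11.08 on DMSO 3, its highest array.

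Between the groups, 10 of 10 osteoblast markers were higher with NU7441, with a median difference of 0.52, and 9 were higher between all same-numbered arrays. The median was 0.27 without NU7441 3, 0.28 without DMSO 1 and 0.82 without DMSO 3, and 9 of 10 were higher under 5 alternatives, Dmp1 or Col1a2 being the exception. The differences were 0.64 (SE 0.33) for Bglap, which encodes osteocalcin, 0.53 (SE 0.24) for Sp7, the transcription factor osterix, 0.52 (SE 0.37) for Ibsp, bone sialoprotein, and 0.04 (SE 0.06) for Col1a1, which encodes a chain of type I collagen. No marker passed over all genes in limma, and 1, Alpl, had an unadjusted p under 0.05 (1 of 10, beside 6.79% of all genes). Median differences of the 8 lists for other cell types lay between -0.05, for macrophages, and 0.09, for skeletal muscle, with 8 of 8 epithelial and 9 of 10 skeletal muscle markers higher. Of the 7 adipocyte markers measured, 5 were higher, with a median difference of 0.075. Fabp4, a fatty acid carrier on that list, went the other way. It was at 4.57, 5.04 and 5.00 with NU7441 and 5.65, 6.23 and 5.72 with DMSO. All its NU7441 arrays lay below all DMSO arrays, and the difference of -0.99 (SE 0.19, adjusted p = 0.598 in limma) was the 4th most negative of all genes. The part of osteoblast maturation, or of the arrays numbered 3, in the differences of Slc8a3 and Atp1b1 was not tested.

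**Figure D3:**
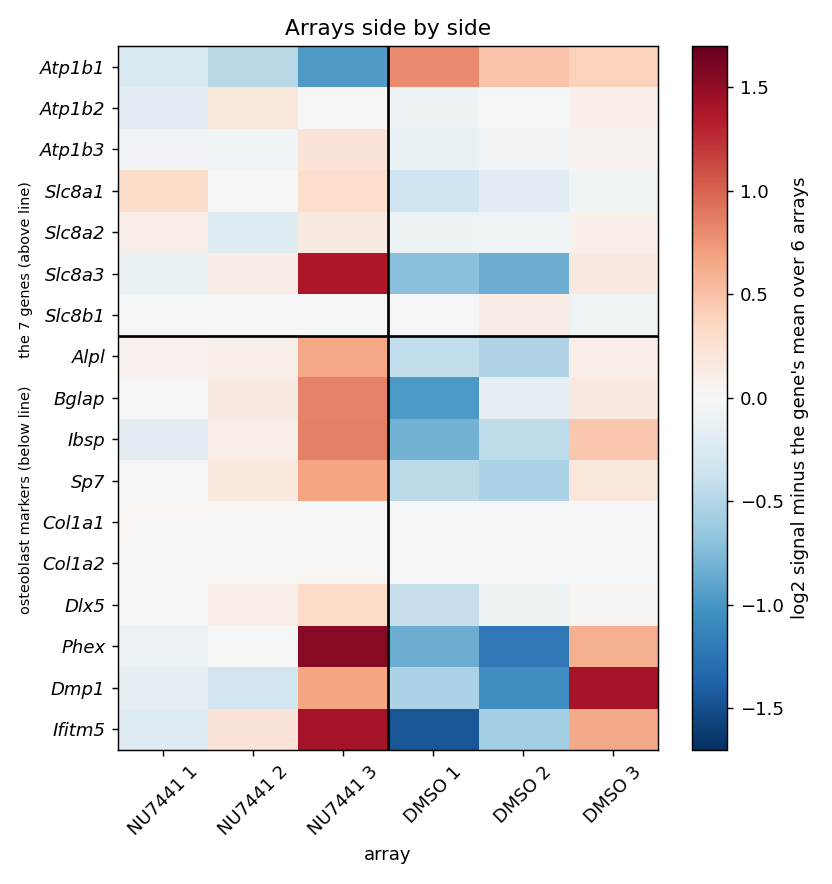
Log2 signal minus the gene's mean over the 6 arrays (colour, red above and blue below) for the 7 genes (above the line) and 10 osteoblast markers (below it), with NU7441 arrays left and DMSO arrays right. Slc8a3, Phex and Alpl are highest on NU7441 3, and Atp1b1 is lowest there.

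The genes whose signal across the 6 arrays was most like that of Atp1b1 and Slc8a3 were picked by Pearson's r among 18807 genes, leaving out predicted genes and small RNAs. The highest r is high by selection, the arrays fall into 2 groups, and r takes no account of size. For Atp1b1 they were Kcna10, a voltage-gated potassium channel (r = 0.998), Il6ra, the α chain of the interleukin-6 receptor (0.997), and the expressed sequence AI504432 (0.991). Il6ra was at 8.67, 8.64 and 8.44 with NU7441 and 9.07, 8.94 and 8.89 with DMSO, a difference of -0.38, while that of Kcna10 was -0.17. Kcna10, between 5.79 and 6.05, and AI504432, between 5.11 and 5.45, were below the array medians on every array. Whether these 2 stood above background was not analysed. For Slc8a3 they were Als2cl (r = 0.998), R3hdm1 (0.996) and Farp2, an exchange factor for small GTPases (0.995). Als2cl was at 6.45, 6.59 and 7.21 with NU7441 and 6.08, 6.01 and 6.57 with DMSO, a difference of 0.53, and Farp2 differed by 0.36, whereas R3hdm1 differed by only 0.02.

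Other genes of sodium and calcium transport were taken from 8 lists by role, of which 106 of 121 genes were measured. None passed over all genes in limma (0%), and 8 of 106, or 7.55%, had an unadjusted p under 0.05, 3 higher and 5 lower, beside 6.79% of all genes. With same-numbered arrays as a block that count was 13, 3 higher and 10 lower, with 0 called. Over all 22180 genes it was then 2078, 1045 higher and 1033 lower. With the block, trend and robust prior together the listed count was 18, 4 higher and 14 lower. All genes then gave 2483, 1005 higher and 1478 lower. In that setting Slc9a9 and Atp2b4 were called, beside 0.451% of all genes. With median centring the split was 3 and 7, beside 549 and 931 over all genes. The listed count was 5 without NU7441 2 and 5 without NU7441 3, and 11 without DMSO 1. Over all genes these were 1178, 1174 and 1746. Over the 106 genes the median difference was -0.01, with 47 higher and 59 lower. All NU7441 arrays lay above all DMSO arrays for 5 of the 106 and below them for 7. Of all genes, 12.8% showed no overlap in either direction, so the separations named below are not unusual in number.

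Nearest to the β subunits, 5 genes listed as pump subunits outside the 7 had a median difference of 0.05. Of these 5 genes, 0 were past an unadjusted p of 0.05. They were Atp1a4, an α subunit of sperm, Atp1b4, whose part in the pump was not examined, and the potassium-proton pump genes Atp4a, Atp4b and Atp12a. Their differences ran from -0.10 for Atp4b (SE 0.11) to 0.10 for Atp4a (SE 0.12). In the list of FXYD and NKAIN proteins, small membrane partners of the pump, 5 of 10 were higher and 5 lower, with a median of 0.00. Nkain1, which encodes a membrane protein that binds β1, was at 9.24, 9.03 and 8.87 with NU7441 and 9.50, 9.38 and 9.42 with DMSO, all NU7441 arrays below all DMSO arrays. Its difference was -0.39 (SE 0.10, adjusted p = 0.670 in limma). Nkain4 differed by 0.25 (SE 0.10, adjusted p = 0.719 in limma), and Fxyd1, phospholemman, by 0.08 (SE 0.09).

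For the regulators of sodium transport, 7 of 18 were higher and 11 lower, with a median of -0.02. Nedd4l, a ubiquitin ligase that takes sodium channels from the membrane, was at 8.84, 9.05 and 8.73 with NU7441 and 9.07, 9.68 and 9.23 with DMSO, a difference of -0.45 (SE 0.17, adjusted p = 0.711 in limma). Sik1, a salt-inducible kinase, differed by -0.22 (SE 0.08, adjusted p = 0.711 in limma), and Nedd4, the ligase related to Nedd4l, by 0.00 (SE 0.06). Both Nedd4l and Sik1 had all NU7441 arrays below all DMSO arrays, beside 12.8% of all genes with no overlap in either direction. Carriers and channels that bring sodium in were evenly split, with 12 of 24 higher. Slc9a9, a sodium-proton exchanger of endosomes, differed by -0.34 (SE 0.11, adjusted p = 0.698 in limma), with -0.33, -0.35 and -0.34 between same-numbered arrays. With the block, trend and robust prior its adjusted p was 0.0266 in limma. Slc12a2, the sodium-potassium-chloride cotransporter, differed by 0.00 (SE 0.10).

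Calcium leaves the cytosol through pumps as well as exchangers, and 3 of 9 calcium pump genes were higher and 6 lower, with a median of -0.05, which turned to 0.00 without DMSO 3. Atp2b4, a calcium pump of the plasma membrane, was at 9.53, 9.63 and 9.80 with NU7441 and 9.13, 9.0 and 9.42 with DMSO. The groups did not overlap, and the difference was 0.47 (SE 0.12, adjusted p = 0.659 in limma, and 0.0286 with the block, trend and robust prior). Atp2a2, the SERCA pump that fills the endoplasmic reticulum, differed by -0.17 (SE 0.09). Among 4 exchangers that move potassium along with calcium, 1 was higher and 3 lower, with a median of -0.11, and -0.05 without DMSO 2. Slc24a3 differed by -0.20 (SE 0.24), DMSO 2 standing at 9.19 and the other 5 arrays between 8.17 and 8.48, and Slc24a1 differed by -0.15 (SE 0.08).

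Mitochondria take up calcium through the uniporter complex and let it out through the product of Slc8b1. All 8 genes measured in the list of mitochondrial calcium uptake and proton exchange had differences below 0, from -0.25 to 0.00, with a median of -0.06. The median was -0.03 without DMSO 2 and -0.10 without DMSO 1. Micu3, a regulator of the uniporter, differed by -0.17 (SE 0.07), with all NU7441 arrays below all DMSO arrays, Ghitm by -0.25 (SE 0.13), and Mcu, the pore of the uniporter, by -0.16 (SE 0.09). None of the 8 had an unadjusted p under 0.05. Over all genes the median difference was 0.004 and the median absolute difference 0.075. All 8 were in the brighter 50 percent of genes. In a limma fit to that part alone, 290 genes were higher and 643 lower at an unadjusted p under 0.05. Of 28 calcium entry and release channels, 15 were higher and 13 lower, with a median of 0.01. Itpr3, a calcium release channel of the endoplasmic reticulum, differed by -0.20 (SE 0.07, adjusted p = 0.698 in limma), Trpv6, a calcium channel of epithelia, by 0.34 (SE 0.13, adjusted p = 0.712 in limma) and Trpm7 by -0.03 (SE 0.06).

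**Figure D4:**
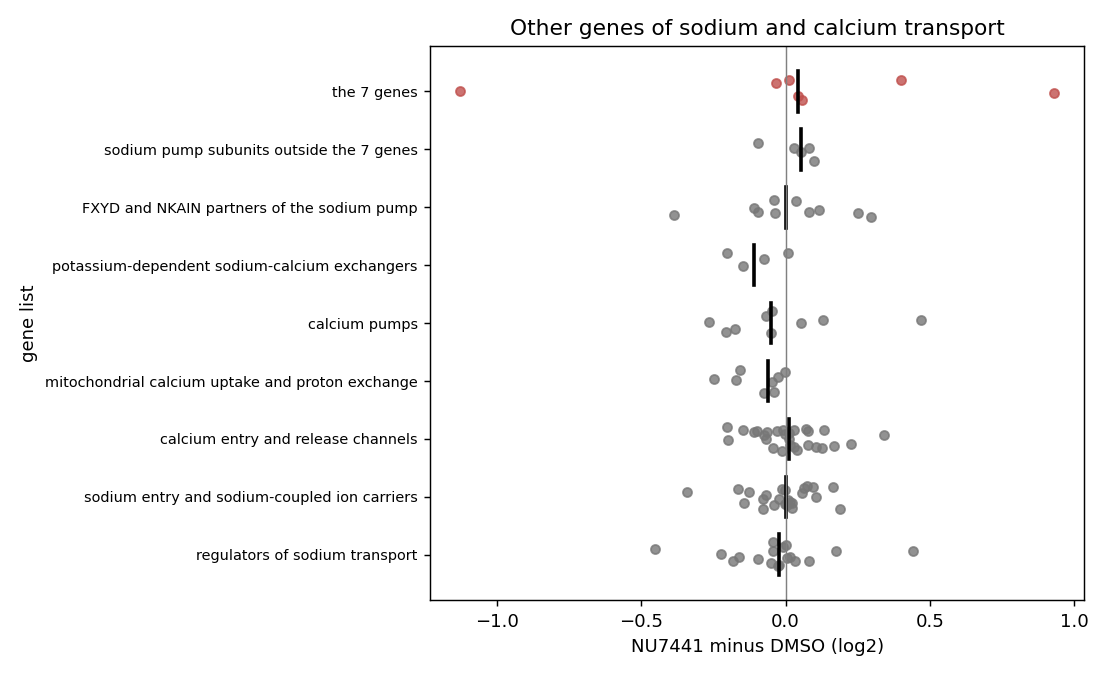
Log2 difference, NU7441 minus DMSO (horizontal axis), of the 7 genes (red) and of each measured gene in the 8 lists by role (grey points, spread vertically for sight), with a black bar at each list's median. Genes of the 8 lists lie between -0.45, for Nedd4l, and 0.47, for Atp2b4, and Atp1b1 and Slc8a3 lie outside that range.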

How the data were processed

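Each of the 6 arrays has 1 deposited log2 value per probe set. The log2 scale was inferred from the range of the values. Per the labels, column-purified total RNA was labelled with biotin. How the authors corrected background, summarised and normalized the deposited log2 values is not given in the sources used here, and they were used as deposited. Of 41345 probe sets, 23521 had 1 gene symbol in the platform annotation, 1814 several and 16010 none, and only the first were named. The brightest probe set of each gene was kept, which left 22180 genes.

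Differences, NU7441 minus DMSO, came from limma 3.58.1, run in R 4.3.3 on all 6 arrays with only the group in the model. Its two-sided p-values were adjusted by Benjamini and Hochberg's method over the 22180 genes, with a threshold of 0.05. The fit was tested on simulated data drawn independently for each array, so the test does not bear on a spread shared by same-numbered arrays. Fits with a trend and robust prior, named below, were not tested in this way. The number of arrays limits the precision. Deviations from group means correlated over genes between 0.149 and 0.339 for same-numbered arrays and between -0.246 and 0.094 for others, so the numbers were taken as pairs in an alternative. The pairing was read from the data, not from a label. For each gene the deviations within a group sum to 0, so higher values for same-numbered arrays go with lower ones for the others. Part of that contrast is therefore built in. The alternatives were the pairs as a block, the same with an intensity trend and robust prior, trend and robust prior alone, median centring, quantile normalization, filters on dim genes, means of probe sets, all probe sets, array weights, each array left out, and both arrays numbered 3 left out.

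The 7 genes and all lists were chosen with earlier results of these data known. The rule named the 7 genes, the listed genes at an unadjusted p under 0.05 (else the 2 with the smallest p), the brightest of each list, 5 osteoblast markers, and 3 genes most like Atp1b1 and 3 most like Slc8a3. Phex, Fabp4, Atp4a, Atp1a4, Atp12a and Mcu were named after their values were seen. Promoter windows are RefSeq's. Python 3.11.15 with matplotlib 3.10.9 drew the figures.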

Additional observations from a re-analysis of the deposited data

How the results depend on the processing

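The count of genes called by limma at an adjusted p under 0.05 was 0 in the reported fit, where the smallest adjusted p was 0.598 and 1506 genes had an unadjusted p under 0.05, and 0 in every alternative run but 1. With same-numbered arrays as a replicate block it was again 0, the Atp1b1 difference stayed at -1.13 and the Slc8a3 difference at 0.93, and the block changed no call among the 7 genes. With the block, an intensity trend and a robust prior together, 100 genes (0.451%) were called, among them 2 of the 7, Atp1b1 and Slc8a3, and 2 of the 106 listed genes, Slc9a9 and Atp2b4. These genes were chosen with such results known. Atp1b1, Slc8a1 and Slc8a3 kept their direction under all 16 alternatives run for them. Leaving out 1 array at a time gave 0.33 to 0.51 for Slc8a1 and 0.48 to 1.24 for Slc8a3, and array weights gave 0.72 for Slc8a3. Each of the 7 genes had 1 single-symbol probe set, so no other probe set could be tried. Atp1b2 and Slc8a2 were too dim for the filter at the upper 50 percent, which gave no value for them. Medians of the 8 lists kept their sign under every alternative run for 4 lists: pump subunits, potassium-dependent exchangers, mitochondrial uptake and regulators. The median of the calcium pumps turned sign only without DMSO 3, and those of the FXYD and NKAIN list, the calcium channels and the sodium carriers lay so near 0 that it turned under 4, 7 and 8 of 16 alternatives. The arrays' signal over background was not analysed here, which limits what the dim genes can show.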
